A study of Homo sapiens with 4 samples.

Results

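Heat shock chaperones of the cytosol and of mitochondria were followed through 4 RNA sequencing libraries of cells labelled HepG2, a human line from a liver tumour. The 10 genes were chosen as chaperones that heat shock factor HSF1 can drive, and their rows were found by Entrez identifier: HSPA1A (3303), HSPA1B (3304), HSPA8 (3312), HSPH1 (10808), DNAJB1 (3337), HSP90AA1 (3320), HSP90AB1 (3326), HSPB1 (3315), HSPD1 (3329) and HSPE1 (3336). All 10 had a row in each library, out of 17008 genes used in 1 pair of libraries and 16856 in the other. Each group held 1 library. Cells of the vector library received empty vector, and cells of its partner received a plasmid for FLAG-tagged JFK, an older name of FBXO42, the F-box subunit of a ubiquitin ligase. Cells of the other pair received control siRNA or siRNA against ING5, a subunit of histone acetyltransferase complexes. The labels used here state no time or dose for either treatment.

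Heat shock proteins bind unfolded or partly folded proteins and help them fold or be degraded. The HSP70 cycle uses a J-domain partner, which delivers the client and starts ATP hydrolysis, and an HSP110-type exchange factor, which releases ADP. HSP90 takes over part-folded clients such as kinases and steroid receptors, and the HSP60 and HSP10 chaperonin folds proteins imported into mitochondria. HSF1, held inactive by chaperones in unstressed cells, binds heat shock elements (arrays of inverted GAA units) when unfolded proteins build up. Some members are made at a high level without stress, HSPA8 and HSP90AB1 among them, while HSPA1A, HSPA1B and DNAJB1 are classic stress-induced genes.

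Summed over genes, vector held 7179259 counts, its partner 7237265, control siRNA 9196979 and ING5 siRNA 9030075. The targeted genes check the labels. ING5 had 144 counts in control siRNA and 81 in ING5 siRNA, 57.0% of control after scaling (interval 42.8% to 75.2%). FBXO42 had 116 counts in vector and 115 in its partner, so the label was not borne out by this transcript and the library is called by its label throughout. Of 14 hepatocyte genes checked, 2 reached 20 counts in every library, HNF4A with 51 to 91 and FOXA1 with 358 to 492, while APOA1, APOB and AFP had at most 2, 1 and 1 where they were listed. ALB, APOA2, TTR, TF and FOXA2 had no row among the genes used in any library. Apart from HNF4A and FOXA1, the hepatocyte genes listed had at most 15.4 counts (FGB). Most of these genes thus did not bear out the HepG2 label, and the cells are called as labelled. The hepatocyte list summed to 52.7 to 65.8 CPM, the count scaled to a common depth with TMM factors. With 1 library per group no difference below has a replicate check and no test or p-value is given. Folds are on log2 of scaled counts with 0.5 added. Intervals given with folds and shares are 95% intervals (exact, Clopper-Pearson) and cover counting error only. In bulk RNA, fewer expressing cells and less RNA per cell cannot be told apart.

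HSF1 groups these genes, so bases before the transcript start are shown for members whose folds are described most closely below. The scan was added after the data were seen. RefSeq start windows on GRCh38.p14, from 250 bases before to 50 after a start, were found for 10 of 10 genes, 16 windows in all. They were searched for pairs of inverted units, GAANNTTC or TTCNNGAA, each of which reads the same on both strands, and for 3 units in a row, which contain 2 overlapping pairs. Capitals mark the pairs, and each line reads along its gene's strand. The deposited tables use another build, GRCh37, so no other coordinates are given.
HSPA1A, chr6:31815425-31815456, plus strand: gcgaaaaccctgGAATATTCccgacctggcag
HSPA1B, chr6:31827621-31827652, plus strand: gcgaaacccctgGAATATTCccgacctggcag
HSP90AA1, chr14:102087093-102087144, minus strand: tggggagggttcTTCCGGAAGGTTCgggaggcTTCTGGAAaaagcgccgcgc
HSP90AB1, chr6:44247766-44247855, plus strand: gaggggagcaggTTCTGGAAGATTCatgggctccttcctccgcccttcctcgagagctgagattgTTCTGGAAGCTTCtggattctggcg
DNAJB1, chr19:14518425-14518486, minus strand: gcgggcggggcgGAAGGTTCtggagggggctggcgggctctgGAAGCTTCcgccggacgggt
HSPB1, chr7:76302479-76302510, plus strand: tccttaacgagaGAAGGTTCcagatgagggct
HSPD1, chr2:197500056-197500090, minus strand: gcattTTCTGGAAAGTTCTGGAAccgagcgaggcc

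HSPA1A and HSPA1B carry 1 pair each, 106 and 105 bases before the start at its first base, with the same 8 letters. Their 250 bases before the start are 94% identical in an alignment. HSP90AA1, HSP90AB1, HSPA8 and HSPD1 hold at least 3 units in a row in 1 of their windows. Of the 10 genes, 8 hold at least 1 pair and 4 hold 3 units in a row. Of all 27305 genes with a window, 16.2% hold a pair and 0.608% hold 3 units. By window, 9 of the members' 16 hold a pair and 4 hold 3 units, against 13.5% and 0.490% of all 35116 windows. No match was found for HSPH1 or HSPE1, which says only that these letters are not in these windows. HSPD1 and HSPE1 lie head to head on chromosome 2. The units of HSPD1, in 2 overlapping runs of 3, precede its start farther from HSPE1, with 538 bases between. The window of its nearer start holds no pair. Between the nearest starts lie 104 bases, shown because 1 short stretch precedes both genes, and it holds no pair.
HSPD1 to HSPE1, chr2:197500275-197500378, plus strand: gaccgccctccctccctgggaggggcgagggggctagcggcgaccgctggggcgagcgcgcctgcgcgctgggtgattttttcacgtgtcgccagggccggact
A match is a string of letters and not a measured binding site.

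**Figure D1:**
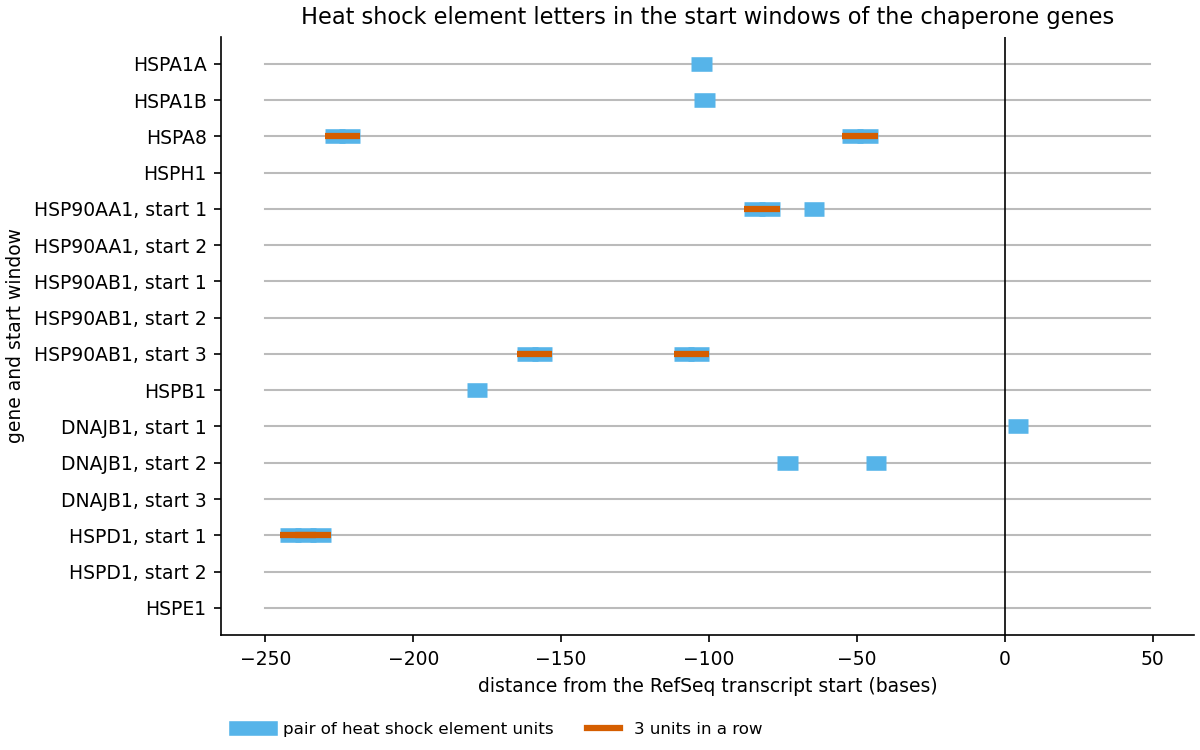
Position of heat shock element letters in the 16 start windows of the 10 genes; the x axis is the distance in bases from the RefSeq transcript start, blue bars are pairs of units, orange bars 3 units in a row, and starts of 1 gene are numbered in genome order. HSPA1A and HSPA1B show 1 pair each about 100 bases before the start, and 4 genes hold 3 units in a row.

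Copies of these genes limit how reads can be assigned. Of the 50-base windows in the longest coding transcript of HSPA1A (GENCODE 29), 72.6% occur unchanged in a transcript of another gene, and for HSPA1B 73.5%, nearly all in each other; this check was added after the data were seen. The share was 27.2% for HSPE1, 24.8% for HSPD1, 18.8% for HSP90AB1, 17.5% for HSP90AA1, 15.4% for HSPA8, 11.4% for HSPB1, 2.57% for DNAJB1 and 0 for HSPH1. The other genes were mostly ones whose symbols mark pseudogenes, and for HSPE1 also HSPE1-MOB4 (16.0%). HSPA1A and HSPA1B are therefore also given as a sum. How reads with several placements were treated was not given in the sources used here, so the copies' single values stay uncertain. Their sum, its interval and its share against HSPA8 also depend on whether such reads were dropped or counted for both copies.

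The level of each gene was read first, per length, as deposited FPKM in vector and the library labelled JFK and as deposited RPKM in the siRNA libraries. HSPA8, the constitutive cytosolic HSP70, was the highest of the 10 in all libraries, at 1285 and 1236 FPKM and at 973 and 923 RPKM. HSP90AB1, the constitutive HSP90, came second in all, at 668, 691, 827 and 901 in the same order of libraries. In ING5 siRNA the intervals of these highest genes overlapped, at 910 to 936 and 889 to 913 RPKM, and elsewhere they did not. HSP90AA1, the inducible HSP90, stood at 374 and 317 FPKM and at 727 and 674 RPKM, with a listed length of 3366 bases in the first pair of tables and 3887 in the other. HSPD1, the HSP60 subunit, stood at 390, 363, 525 and 458.

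The small heat shock protein gene HSPB1 stood at 288, 344, 259 and 282, and the HSP10 gene HSPE1 at 166, 165, 218 and 211. Near the bottom were DNAJB1, the J-domain partner of stress-induced HSP70, at 56.5, 57.4, 70.3 and 68.0, and HSPH1, the HSP110 exchange factor, at 39.2, 41.3, 62.5 and 53.8. HSPA1A stood at 160 and 178 FPKM and at 40.5 and 22.2 RPKM. HSPA1B stood at 120 and 124 FPKM and at 25.7 and 15.6 RPKM, the lowest of the 10 in both siRNA libraries. Neighbours whose intervals overlapped were HSPD1 and HSP90AA1 in vector, HSPE1 and HSPA1A in both libraries of that pair, and HSPD1 and HSPB1 in the library labelled JFK.

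**Figure D2:**
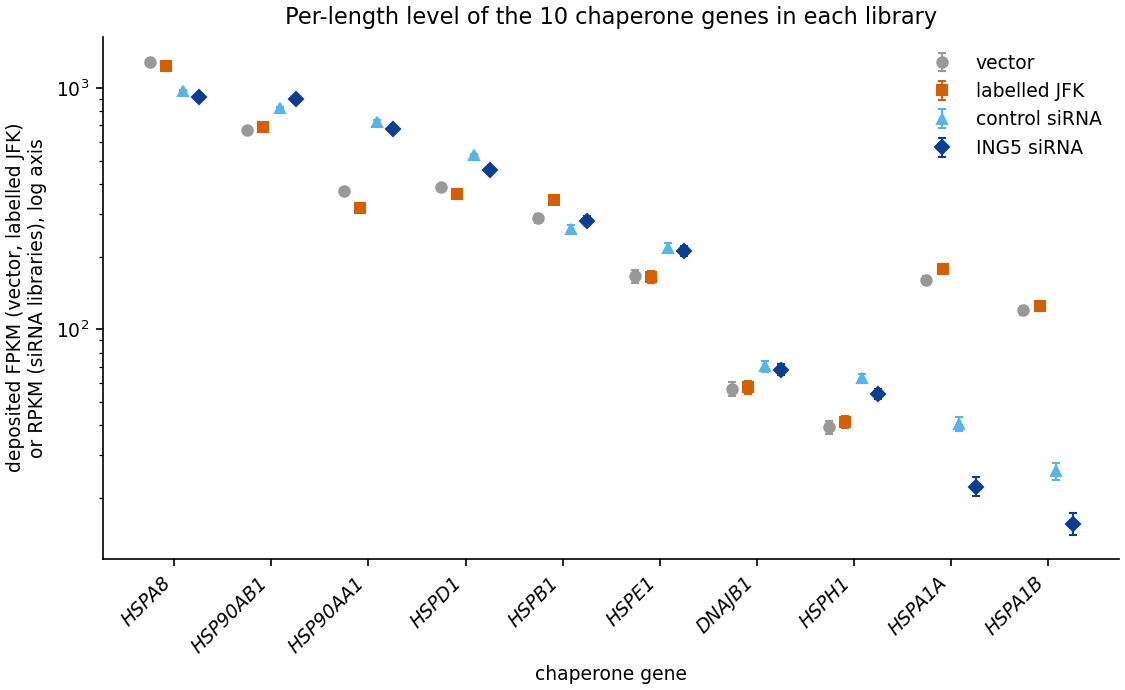
Deposited per-length level of the 10 genes on a log axis (FPKM in vector and the library labelled JFK, RPKM in control siRNA and ING5 siRNA); each point is 1 library and bars are exact 95% Poisson intervals of the count. HSPA8 is the highest in each library, and HSPA1A and HSPA1B lie between 120 and 178 in the first pair and between 15.6 and 40.5 in the siRNA pair.

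All 10 genes together took 0.838% of the reads in vector, 0.823% in the library labelled JFK, 0.957% in control siRNA and 0.927% in ING5 siRNA. HSPA1A and HSPA1B summed to 689 and 769 CPM in vector and the library labelled JFK, and to 165 and 94.6 in control siRNA and ING5 siRNA. HSP90AA1 had 1253 and 1093 CPM in the first pair and 2837 and 2633 in the siRNA pair. The pairs hold different kinds of count, so these levels stand side by side and no fold between pairs is drawn. Other markers stood at different levels too: the squamous list summed to 2892 and 3859 CPM in the first pair and 296 and 254 in the siRNA pair, and the fibroblast list to 62.9 and 67.0 and to 88.4 and 89.7. The part of these, and of read assignment, in the HSPA1A and HSPA1B levels was not tested.

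ING5 siRNA was set against control siRNA to ask which transcripts differ when ING5 is lowered. The stress-induced HSP70 genes were the members that differed most, and both were lower. HSPA1A had 912 counts in control siRNA and 495 in ING5 siRNA, or 99.5 and 54.6 CPM. HSPA1B had 603 and 362 counts, or 65.8 and 39.9 CPM. The counting intervals of each gene's level did not overlap between the libraries. Their sum was 1515 against 857 counts, which is 57.2% of control (log2 fold −0.81, interval −0.93 to −0.68). Singly the log2 folds were −0.86 (−1.03 to −0.71) for HSPA1A and −0.72 (−0.91 to −0.53) for HSPA1B. HSPA1A made up 60.2% of the summed reads in control siRNA (interval 57.7% to 62.7%) and 57.8% in ING5 siRNA (54.4% to 61.1%), and these intervals overlap.

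Of the 10 members, these 2 lay 1.5-fold or more below control and 0 lay as far above it. Among 11634 genes with a mean of at least 20 scaled counts, 4.4% lay that far below and 4.01% that far above. Because counting noise falls with abundance, the same was read among 5053 genes with a mean of at least 400, a level that all members passed; there 2.77% lay 1.5-fold or more below and 1.11% above. Of 5043 such genes outside the members, 27 lay below HSPA1A, 66 below HSPA1B and 33 below their sum. The 2 HSP70 copies share most of their sequence and are not separate observations.

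The constitutive HSP70 gene HSPA8 differed far less, with 20875 counts in control siRNA and 19596 in ING5 siRNA (log2 fold −0.08, interval −0.10 to −0.05). Within the library, which needs no scaling, HSPA1A and HSPA1B took 6.77% of the reads of these 3 genes in control siRNA (6.44% to 7.10%) and 4.19% in ING5 siRNA (3.92% to 4.47%). The stress-induced share of cytosolic HSP70 transcripts was thus lower in the ING5 siRNA library beyond counting error. HSPH1 had 2117 and 1803 counts (−0.22, interval −0.31 to −0.12). DNAJB1 had 1445 and 1383 counts, and its interval spanned 0 (−0.05, interval −0.15 to 0.06). Both HSP70 copies and, to a smaller extent, HSPH1 were lower beyond counting error, and a difference of DNAJB1 was not detectable at this depth.

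The HSP90 genes differed in opposite directions in the siRNA pair. HSP90AA1 had 25995 counts in control siRNA and 23860 in ING5 siRNA (−0.11, interval −0.13 to −0.08). HSP90AB1 had 20665 and 22279 counts (0.12, interval 0.10 to 0.15). Their sum was level, at 5092 and 5091 CPM, and the interval of the fold was 0.987 to 1.01. HSP90AA1 made up 55.7% of HSP90 reads in control siRNA (55.3% to 56.2%) and 51.7% in ING5 siRNA (51.3% to 52.2%).

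Of the mitochondrial chaperonin, HSPD1 had 11308 counts in control siRNA and 9764 in ING5 siRNA (−0.20, interval −0.23 to −0.16). HSPE1, its HSP10 lid and head-to-head neighbour, had 1937 and 1852 counts (−0.05, interval −0.14 to 0.04). HSPD1 reads made up 85.4% of the 2 genes' reads in control siRNA (84.8% to 86.0%) and 84.1% in ING5 siRNA (83.4% to 84.7%). HSPB1, a small heat shock protein that holds unfolded clients without ATP, had 2182 and 2351 counts (0.12, interval 0.04 to 0.21).

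Over the 10 genes the median log2 fold was −0.09, against −0.01 over all 11634 genes and −0.01 over the abundant 5053. The interval lay wholly below 0 for 6 members and wholly above 0 for 2. The background was 20.6% of genes below and 18.3% above, and 29.2% and 25.8% among the abundant genes. The 8 members other than HSPA1A and HSPA1B summed to 9442 and 9146 CPM, a fold of 0.969 (0.960 to 0.978). Singly, the folds of these 8 ran from 0.861 for HSPH1 to 1.09 for HSP90AB1 and HSPB1. In the ING5 siRNA pair the 4 endothelial genes read as markers, of which 1 to 2 reached 20 counts in any library, summed to 26.4 and 12.03 CPM in control siRNA and ING5 siRNA, mostly CDH5 (224 and 87 counts), and the 5 leukocyte genes to 1.64 and 1.99; their part in these values was not tested.

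**Figure D3:**
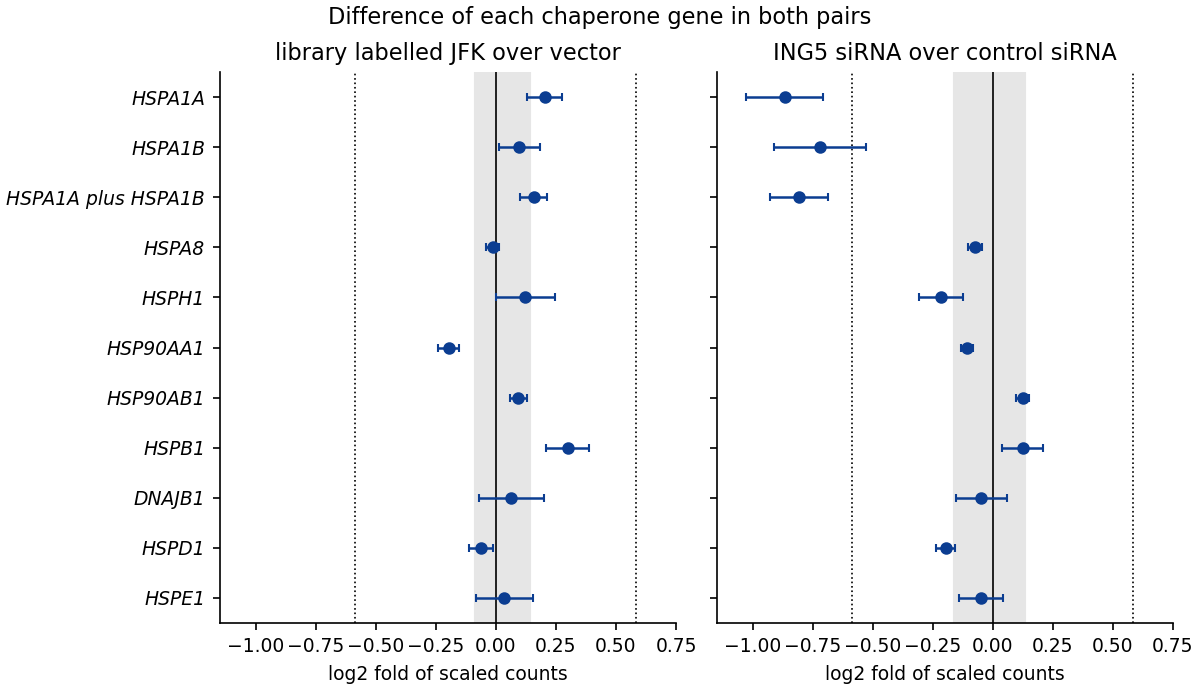
Log2 fold of scaled counts of each member and of HSPA1A plus HSPA1B in both pairs; points are the fold, bars exact 95% counting intervals, the grey band the middle 50% of genes with a mean of at least 400 counts, and dotted lines 1.5-fold. HSPA1A and HSPA1B lie at −0.86 and −0.72 under ING5 siRNA, beyond the dotted line, and no member crosses it in the other pair.

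The library labelled JFK was compared with vector in the same way. No member was 1.5-fold apart, and the small heat shock protein gene HSPB1 lay farthest above vector, with 2237 expected counts against 1848 in vector (0.30, interval 0.21 to 0.39). Of 4365 other genes with a mean of at least 400, 116 lay higher. HSPA1A had 2809 and 3181 expected counts and HSPA1B 2201 and 2315, and their sum was 1.12-fold higher (interval 1.07 to 1.16). HSP90AA1 lay farthest below vector, with 9108 and 7815 counts (−0.20, interval −0.24 to −0.15), where 405 of the 4365 other genes lay lower.

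The remaining members were close to vector. HSP90AB1 had 13006 and 13643 expected counts (0.09, interval 0.06 to 0.13), so the HSP90 genes again differed in opposite directions. HSP90AA1 made up 41.2% of HSP90 reads in vector (40.5% to 41.8%) and 36.4% in the library labelled JFK (35.8% to 37.1%), and the HSP90 sum had a fold of 0.987 (0.968 to 1.01). HSPD1 had 6561 and 6182 counts (−0.06, interval −0.11 to −0.01), and HSPA8 had 21537 and 20991 (−0.01, interval −0.04 to 0.01). For HSPH1, DNAJB1 and HSPE1 the intervals spanned 0: 1042 and 1115 counts for HSPH1 (0.12), 907 and 933 for DNAJB1 (0.06), and 1123 and 1132 for HSPE1 (0.04). HSPA1A and HSPA1B took 18.9% of the reads of these genes and HSPA8 in vector (18.4% to 19.3%) and 20.7% in the library labelled JFK (20.3% to 21.2%). HSPE1-MOB4, a readthrough locus that contains HSPE1, had 0 and 12.1 expected counts, against a floor of 3 counts.

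The members' median log2 fold was 0.08, against 0.00 over 12106 genes and 0.03 over the 4375 with a mean of at least 400. At the 1.5-fold threshold the background was 1.5% higher and 2.07% lower among all, and 0.0686% and 0.64% among the abundant genes, so 0 of 10 is near it. The interval lay wholly above 0 for 4 members and wholly below 0 for 2, where the background was 14.3% above and 11.2% below, and 26.9% and 15.4% among the abundant genes. With the deposited FPKM in place of scaled counts the median was 0.04, and HSPE1 turned to −0.01. Keratin and other squamous markers summed to 3859 CPM against 2892 in vector, almost all from KRT17 (20990 counts in vector and 27539 in its partner), and their part in these values was not tested.

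**Figure D4:**
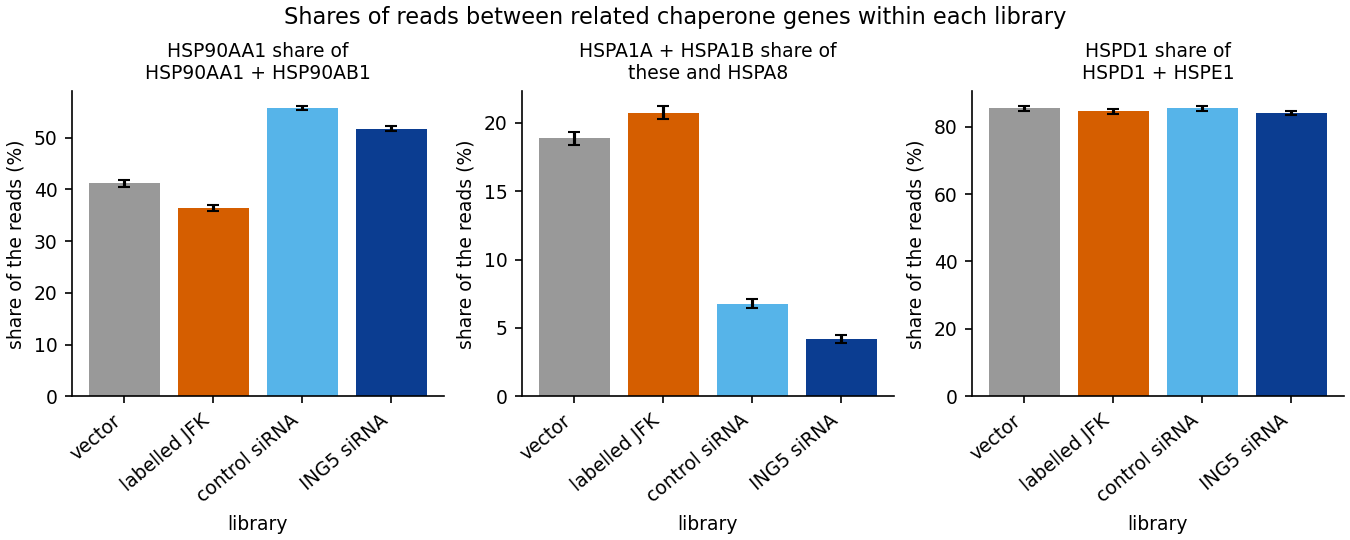
Share of reads that 1 gene or group takes among related chaperone genes within each library, in percent; bars are single libraries and error bars exact 95% binomial intervals. HSP90AA1 takes 41.2% and 36.4% of HSP90 reads in vector and the library labelled JFK, and 55.7% and 51.7% in control siRNA and ING5 siRNA; HSPA1A plus HSPA1B takes 6.77% and 4.19% with HSPA8 in the siRNA libraries.

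The regulators and partners of the members were read from lists by role, some of which share genes. HSF1, the main heat shock factor, had 356 counts in control siRNA and 307 in ING5 siRNA (−0.20, interval −0.42 to 0.03), and 705 and 840 in vector and the library labelled JFK (0.28, interval 0.13 to 0.42). HSF2, a related factor, had 326 and 441 counts in the siRNA pair (0.45, interval 0.24 to 0.66) and 97 and 71 in the other (−0.42, interval −0.89 to 0.03). Of 6 factors and direct regulators, 0 were 1.5-fold apart in either pair. Of all genes, 4.4% lay that far below and 4.01% above in the siRNA pair, and 2.07% and 1.5% in the other. HSBP1 lay lowest of the 6 in the siRNA pair, with 1147 and 987 counts (−0.20, interval −0.32 to −0.08). HSPA6, a strictly stress-induced HSP70, had 9 counts in vector and 3 in its partner, and 0 and 5 in the siRNA pair, near the floor of 3 counts; it was named after its values were seen, as was HSPE1-MOB4. HSPA1L, a close relative that shares 2.51% of the 50-base windows of HSPA1A, had 29.6, 13.8, 31 and 42 in the same order.

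Other HSP70 and HSP110 genes had a median log2 fold of 0.19 over 10 measured genes in the siRNA pair. The interval lay wholly above 0 for 5 of them, below for 2 and across 0 for 3, where 18.3% of all genes lay above and 20.6% below (25.8% and 29.2% of abundant genes). HSPA13, of the microsomal compartment, had 743 and 1075 counts (0.55, interval 0.41 to 0.69) and HYOU1, an endoplasmic reticulum HSP110, 1784 and 2139 (0.28). The lowest were HSPA14 (358 and 269 counts, −0.40) and the HSP110 relative HSPA4L (1165 and 966, −0.25). None of the 10 was 1.5-fold apart, where 4.4% of all genes lay that far below and 4.01% above. In the other pair the median was −0.07 over 9 genes, and 1 was 1.5-fold lower, HSPA1L, as were 2.07% of all genes.

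Partners of HSP70 spread to both sides. Of 33 other J-domain genes, 8 had an interval wholly above 0 and 7 below under ING5 siRNA, with a median of 0.00, near the 18.3% and 20.6% of all genes. DNAJB5 had 35 and 61 counts (0.81, interval 0.19 to 1.46), while DNAJC13, which acts on endosomes, had 2017 and 1408 (−0.50, interval −0.60 to −0.40). DNAJC13 was also lower in the library labelled JFK, with 1518 and 1026 counts (−0.54), where the list's median was −0.03. There 1 gene of the list, DNAJC25, was 1.5-fold lower (127 and 83 counts), as were 2.07% of all genes. For DNAJC13 in the siRNA tables, the listed count and RPKM do not match over its listed length. Among 14 co-chaperones and exchange factors of HSP70, BAG1, a nucleotide exchange factor that links HSP70 to the proteasome, had 1822 and 1128 counts under control siRNA and ING5 siRNA (−0.68, interval −0.78 to −0.57). It was the 1 member of that list 1.5-fold apart, where 4.4% of all genes lay that far below and 4.01% above. SIL1, an exchange factor of the endoplasmic reticulum, lay highest at 407 and 556 (0.47). The list's median was 0.06 in this pair and 0.03 in the other.

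HSP90 co-chaperones and homologues numbered 19, none 1.5-fold apart in either pair. Of all genes, 4.4% lay that far below and 4.01% above in the siRNA pair, and 2.07% and 1.5% in the other. Under ING5 siRNA their median was 0.05, with 7 intervals wholly above 0, 2 below and 10 spanning 0 (18.3% and 20.6% of all genes lay above and below), and TRAP1, the mitochondrial HSP90, had 3083 and 3620 counts (0.25, interval 0.18 to 0.32). In the library labelled JFK the median was 0.08, with 8 above, 1 below and 10 spanning 0, where 14.3% of all genes lay above and 11.2% below (26.9% and 15.4% of abundant genes). FKBP8, a membrane-bound immunophilin, had 1807 and 2260 counts there (0.35), and FKBP5, a steroid receptor immunophilin, 121 and 81.2 (−0.55, interval −0.98 to −0.14), though its listed count and FPKM do not match over its listed length.

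Mitochondrial chaperones and quality proteases, other than HSPD1 and HSPE1, had a median of 0.15 over 19 genes under ING5 siRNA, with 8 intervals above 0, 1 below and 10 spanning 0, where 18.3% of all genes lay above and 20.6% below (25.8% and 29.2% of abundant genes). GRPEL1 and GRPEL2, exchange factors of mitochondrial HSP70, had 474 and 593 counts (0.34) and 419 and 547 counts (0.40), whereas DNAJA3, a mitochondrial J-domain protein, had 1233 and 967 (−0.33, interval −0.46 to −0.21). In the library labelled JFK the median was 0.02 over 20 genes.

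The cytosolic chaperonin TRiC and prefoldin, which fold actin and tubulin, had medians of 0.01 and −0.04 over 15 genes under ING5 siRNA and in the library labelled JFK. CCT6A had 5267 and 4545 counts in the siRNA pair (−0.20) and 3757 and 3386 expected counts in the other (−0.13). PDCL3, a chaperonin cofactor, was the 1 gene 1.5-fold apart, with 137 and 83 counts under control siRNA and ING5 siRNA (−0.70, interval −1.12 to −0.30). In that pair 4.4% of all genes lay that far below and 4.01% above. Of 10 other small heat shock proteins 2 were measured, HSPB7 and HSPB8, at 82 and 81 and at 354 and 340 counts in the siRNA pair. In the other pair HSPB7 had 52 counts in vector and 69 in its partner (0.43, interval −0.11 to 0.98), and HSPB8 had 189 and 216 (0.22, interval −0.07 to 0.51). Both intervals span 0, and the median of these genes was 0.32.

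Of 30 measured other stress genes that HSF1 is known to bind, 6 had an interval wholly above 0 and 9 below under ING5 siRNA, with a median of −0.03. The interval lay wholly above 0 for 18.3% of all genes and wholly below for 20.6% (25.8% and 29.2% of abundant genes). The list also holds genes less abundant than the latter, JUN among them. SERPINH1, the collagen chaperone HSP47, was lowest, with 1250 and 804 counts (−0.62, interval −0.75 to −0.49), and also lay below vector in the library labelled JFK, with 2451 and 1795 (−0.43, interval −0.51 to −0.34). Its count and RPKM in the siRNA tables do not match over its listed length. DNAJA1, a cytosolic J-domain partner of HSP70, had 4143 and 3321 counts in the siRNA pair (−0.30, interval −0.37 to −0.24). On the high side were JUN, an immediate early factor, with 197 and 329 counts (0.75, interval 0.50 to 1.02), and PPP1R15A, which restarts translation after stress, with 253 and 412 (0.72). SERPINH1, JUN and PPP1R15A were the ones of the list 1.5-fold apart in this pair. Of all genes 4.4% lay that far below and 4.01% above. In the other pair 9 intervals were above 0 and 4 below, with a median of 0.09. There 14.3% of all genes lay above and 11.2% below (26.9% and 15.4% of abundant genes). In the list 1 gene was 1.5-fold higher, as were 1.5% of all genes. That gene was again JUN, with 79 counts in vector and 120 in its partner (0.62, interval 0.21 to 1.06).

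**Figure D5:**
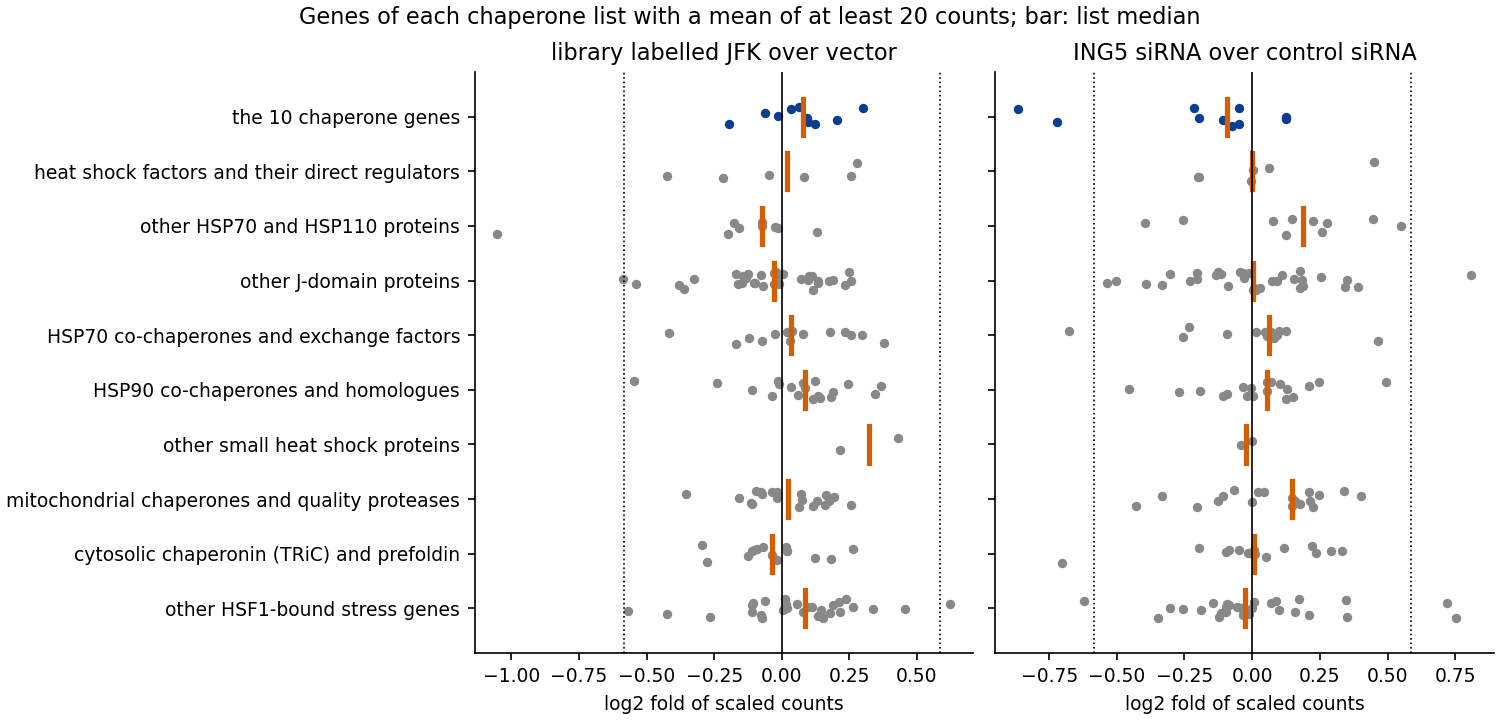
Log2 fold of scaled counts for genes with a mean of at least 20 counts in the 10 chaperone genes (blue) and in 9 lists of partners and regulators (grey) in both pairs; orange bars are list medians and dotted lines 1.5-fold. HSPA1A and HSPA1B stand at −0.86 and −0.72 under ING5 siRNA. The list of other HSP70 and HSP110 genes, which includes genes of the endoplasmic reticulum, has a median of 0.19 there and runs from −0.40 to 0.55.

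Genes outside the members that hold 3 heat shock element units in a start window were read as a group too. Of 40 measured in the siRNA pair, 5 (12.5%) lay 1.5-fold or more above control and 4 (10%) as far below, with a median log2 fold of −0.02. Among 8135 genes with no pair of units these shares were 3.68% and 3.98%, with a median of −0.01. Among 1287 genes with a pair, which include those with 3 units, they were 3.26% and 4.90%, with a median of −0.03. In the other pair 2 of 45 (4.44%) lay that far above vector and 0 below, with a median of 0.03, against 1.28% and 1.77% of 8410 genes with no pair and a median of 0.00. Of 1320 genes with a pair there, 1.44% lay above and 1.44% below, with a median of −0.005. These groups of genes were not matched for abundance, and the difference between them was not tested.

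The genes most like HSPA1A plus HSPA1B over the 2 log2 folds were sought among 2863 genes with a mean of at least 500 in both pairs, by Euclidean distance. First was JADE2, a scaffold of HBO1 acetyltransferase complexes, at a distance of 0.08, with 691 and 412 counts in control siRNA and ING5 siRNA (−0.73). Next came TMOD3, an actin filament capping protein, at 0.08, EBP, a sterol isomerase, at 0.09, and ZBTB4 and TES, both at 0.11. For the sum of all 10 members they were SEM1 and PSME3, both of the proteasome, then CCT4, EI24 and ARHGAP35, at distances of 0.00 to 0.01. Only 2 values enter each distance, so these lists are a description.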

How the data were processed

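RNA was sequenced from 4 libraries, 1 per group; groups come from the transfection label. The submitters' processing notes name STAR, fastp, FastQC and DESeq2, and GRCh37 (hg19). Tool roles, versions, read counter: not given in the sources used here. In the vector and JFK tables the authors deposited expected counts (68.6% and 69.0% whole) beside FPKM, and in the siRNA tables whole-number counts beside RPKM. Symbols came from a RefSeq table of GRCh38.p14, matching 16899 and 16767 identifiers.

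Repeated identifiers, 1 row without an Entrez identifier and 1 blank count were left out (2 identifiers per pair). Counts were scaled with TMM factors (trims 0.3 and 0.05) to the pair's mean total, 0.5 was added and the log2 ratio taken; expected counts were rounded for intervals only. A gene was measured at a mean of 20; 1.5-fold was the threshold. The 400 minimum, the within-library shares, the motif scan and the 50-base windows were chosen after the data were seen. Count tests need replicates, so none was run. The method was tested on data simulated with counting error only, which cannot show the error between replicates. Counts and per-length values of a gene were compared, and 0 members disagreed. In the vector pair values over 5% apart were marked (571 genes). In the siRNA pair any gap beyond rounding was marked (145 genes), so a mark there can be a smaller gap. Python 3.11.15, numpy 2.4.6, pandas 2.3.3, scipy 1.17.1 and matplotlib 3.10.9 were used.

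Named genes were all members, up to 3 highest and 3 lowest genes of each list in each pair, FBXO42 and ING5, and the 5 genes nearest by fold. Members and lists were chosen with earlier results of these data known. Intervals and the floor of 3 counts (0.327 to 0.420 CPM) cover counting error only. Alternatives were other scalings, units, added counts, filters and gene sets.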

Additional observations from a re-analysis of the deposited data

How the results depend on the processing

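Under all 8 alternatives HSPA1A plus HSPA1B kept its direction in both pairs where it could be computed, from −0.82 to −0.80 under ING5 siRNA and from 0.11 to 0.16 in the library labelled JFK. With whole counts only, the latter has no value because both counts are fractional there. The number of members 1.5-fold apart was 2 and 0 throughout. The members' median ran from −0.11 to −0.08 under ING5 siRNA and from 0.00 to 0.08 in the library labelled JFK. There, members with an interval wholly above 0 numbered 1 to 4 over the alternatives (1 with whole counts only, which left 6 members) and those below 2 to 3. In that pair HSPA8 moved from −0.01 to −0.05 with total count scaling and −0.06 with FPKM, and HSP90AB1 from 0.09 to 0.06 and 0.05. No paired analysis was possible because each group holds 1 library, and no library could be left out. Depth limits calls for HSPA6 and HSPE1-MOB4.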
